A study of Mus musculus with 6 samples.

Results

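The C1q+ macrophages of the fetal liver at embryonic day 13.5 (E13.5) were taken as the segmented cells of 1 Xenium section that held 3 or more counts of C1qa, C1qb and C1qc together. This rule gave 301 of the 5285 cells of the section. They were set against the cells of the same section with no C1q count, over the other genes of a 5050-gene panel. The cells were chosen by their measured C1q counts, so the C1q values below are a description of the gate and carry no test.

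Xenium is an imaging assay that decodes single RNA molecules inside segmented cells of a tissue section. The section came from a wild-type embryo on the C57BL/6 background, untreated, and was cut at 5 µm. It was 1 of 6 mouse Xenium sections in the series, each the only one of its condition there. An E14.5 fetal liver section, on a smaller panel, and a bone marrow section from an 89-week-old mouse, on the same 5050-gene panel, were read beside it, and both were also wild type and untreated. With 1 section per condition no test across animals was possible, and every interval given below covers counting error alone.

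C1q is the recognition unit of the classical complement pathway, and in tissue it is made mostly by macrophages from 3 genes that lie side by side. The fetal liver is the main site of blood formation before birth, where a central macrophage surrounded by maturing red cell precursors forms an erythroblastic island. Such macrophages hold erythroblasts through surface adhesion molecules, engulf the nuclei that the red cells expel, and recycle the iron of heme.

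The members carried a median of 5 C1q counts per cell, from 3 to 87. C1qb gave 866 of their C1q counts (39.0%), C1qa 685 (30.8%) and C1qc 671 (30.2%). All 3 genes were seen in 157 cells, 2 of them in 133 cells and 1 of them in 11 cells. C1qa and C1qb were thus each present in most members, in 84.1% and 84.7% of them, and C1qc in 79.7%. At the edge of the gate, the 82 cells with exactly 3 C1q counts held the macrophage core list, a set of general macrophage markers without C1q, at 7349 counts per 1000000 transcripts of genes other than C1q (CPM, exact Poisson interval 6288–8536). The 129 cells with 2 counts, just outside, held it at 4976 (4306–5722). The cells with no C1q count held it at 594.

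The macrophage label was checked on genes that the gate did not use. Macrophage core genes were detected in 262 of the 301 members (87.0%, exact binomial interval 82.7–90.6%) and in 450 of the 4523 cells with no C1q count (9.95%, 9.09–10.9%). At least 3 counts of these genes were held by 173 members and by 51 of the other cells. Not every member had such support, since 39 members (13.0%) had no count of the list.

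The members were deeper than the cells they were set against. The median was 252 transcripts and 192 genes per cell in the members, with a range from 47 to 1848 transcripts, against 182 transcripts and 137 genes in the cells with no C1q count. Their median cell area was 43.0 µm² against 40.6 µm², and the median nuclear area was 21.3 µm² against 22.3 µm². More than 1 nucleus was drawn in 16 members (5.32%, 3.07–8.49%) and in 105 of the other cells (2.32%, 1.90–2.80%). Levels are therefore given below in CPM. Shares of cells are given after each cell had been thinned to 100 transcripts where the text says so, and are otherwise unthinned and move with depth. Cells with fewer than 5 genes were left out, which removed 31 cells of the section and no member.

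The members made up 5.73% of the 5254 cells kept (5.12–6.39%). They lay on both sides of the section, with 143 of 2627 cells (5.44%, 4.61–6.38%) on the left side of the section, split at the median x position, and 158 of 2627 (6.01%, 5.14–6.99%) on the right side. The intervals of the sides overlapped.

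**Figure D1:**
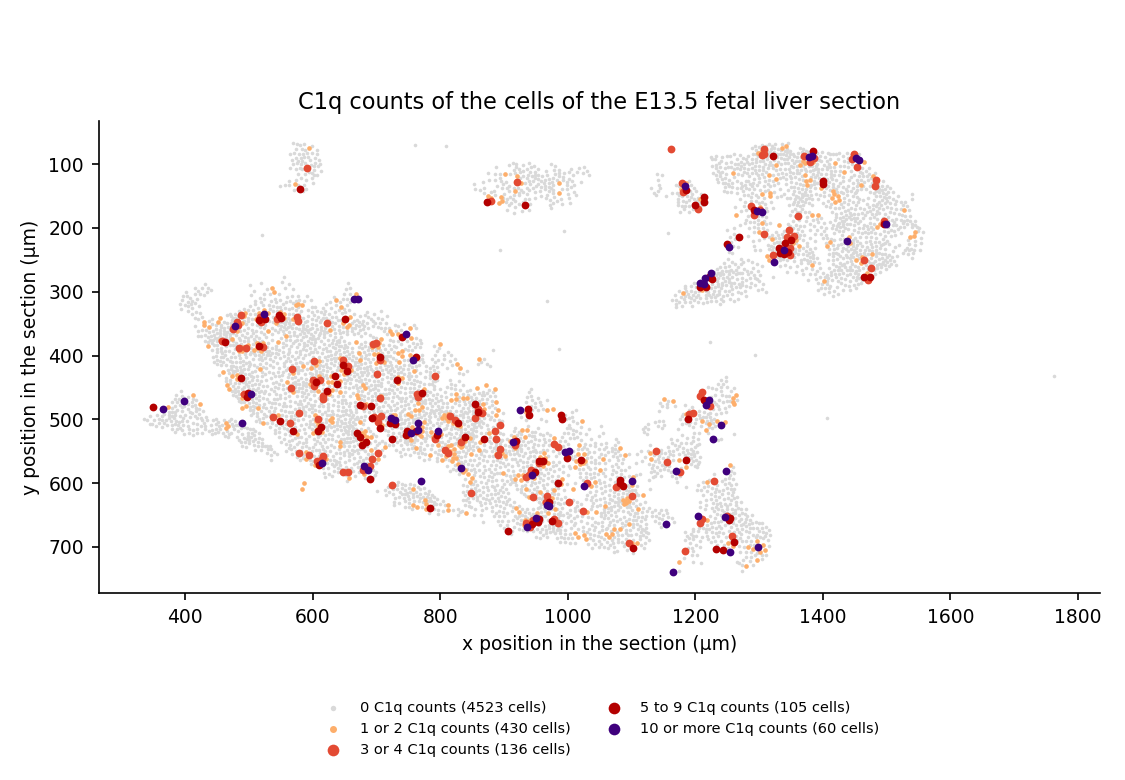
Positions of the 5254 cells of the E13.5 fetal liver section in µm, each point 1 cell, colored by its summed counts of C1qa, C1qb and C1qc. The 301 C1q-positive cells (red to purple) lie on both sides of the section, 209 of them within 10 µm of another one.

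Over the panel, 2048 genes had 100 or more counts in both groups together. Of these, 134 (6.54%) were at least 2-fold higher in the members and 126 (6.15%) at least 2-fold lower. The median log2 ratio over all 2048 genes was -0.13. Of the 134 higher genes, 73 had a lower interval bound above 2-fold and 108 were at least 2-fold higher on each side of the section. Of the 126 lower genes, 11 had an upper bound below the 2-fold mark and 73 were at least 2-fold lower on each side. At 4-fold or more lay 48 genes, and 20 at 10-fold or more. Of the 134 higher genes, 33 reached the minimum of 100 counts only through the members, and lower genes had few counts in the smaller group, so the bounds of both sides are not alike in width.

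**Figure D2:**
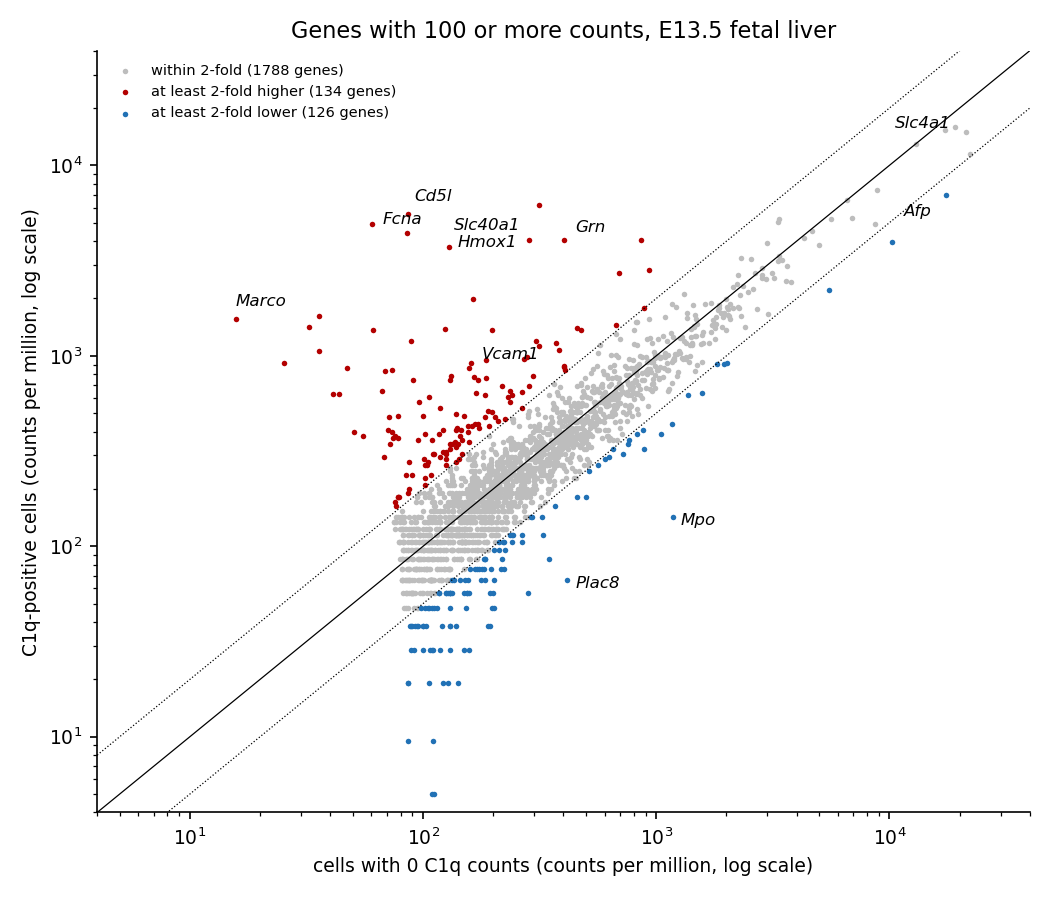
CPM in cells with 0 C1q counts (x axis, log scale) and in C1q-positive cells (y axis, log scale) for the 2048 genes with 100 or more counts, 1 point per gene. The solid line is equality and the dotted lines are 2-fold. Genes with no count in the members are drawn at 5. The 134 red genes lie at or above the upper dotted line, 48 of them at 4-fold or more, with the highest ratios for Marco, Fcna and Cd5l. Slc4a1 of the red cell membrane lies near equality, and Mpo and Afp lie below it.

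The 25 genes with the highest ratios ran from 99.4-fold to 6.93-fold, and 17 of them reached the minimum only through the members. Their lowest ratio was 7.87-fold on the left side and 5.73-fold on the right side. After thinning, each was seen in 3.94% to 44.8% of 279 members and in 0.119% to 4.33% of 3372 cells with no C1q count. Thinning left out 22 members and 1151 other cells. The number of probes differs between genes of the panel, so levels are not compared between genes.

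The highest ratios were those of Marco, Fcna and Cd5l. Marco, a scavenger receptor for bacteria and debris, was at 1562 CPM in the members, from 164 counts, and at 15.7 in the other cells, from 18 counts. That is a 99.4-fold difference with an interval from 61.0 to 172. The intervals cover counting error alone, and the Marco ratio was 41.0 as a mean over cells and 35.6 against all cells with 0 to 2 C1q counts. Fcna, the ficolin that macrophages secrete to recognize microbial sugars, was at 4952 against 60.2 CPM (82.2-fold, 63.9–107). The Fcna ratio was 33.6 against cells with 0 to 2 C1q counts and 196 against cells at 20 µm or more from every member. Cd5l, a secreted protein of tissue macrophages that follows from liver X receptor activity, was at 5570 against 86.4 (64.5-fold, 52.0–80.6). In thinned cells Cd5l was seen in 36.2% of the members (30.6–42.1%), against 0.919% of all cells with no C1q count and 1.01% of those that held 3 or more counts of erythroid core genes. The unthinned shares were 51.5% and 1.72%. Marco was seen in 15.4% of thinned members (11.4–20.2%) and in 0.127% of the erythroid-gated cells, whose median depth was 193 transcripts. Cd5l and Fcna were found together in 119 of the 301 members, singly in 36 and 56 of them, and neither was found in 90. Over the 25 leading genes, the share of members with a count ran from 10.3% to 70.8%, and 7 genes were seen in most members.

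The 250 bases before the annotated start of these 3 genes are shown because these genes led the order. They are read 5′ to 3′ on the gene's strand from RefSeq on build GRCm38.p6, and capitals mark AGGAAG or its reverse complement CTTCCT, the core that ETS factors such as PU.1 bind. The Marco stretch is chr1:120505025-120505274 on the minus strand, the Fcna stretch chr2:25627975-25628224 on the minus strand, and the Cd5l stretch chr3:87357631-87357880 on the plus strand.
Marco: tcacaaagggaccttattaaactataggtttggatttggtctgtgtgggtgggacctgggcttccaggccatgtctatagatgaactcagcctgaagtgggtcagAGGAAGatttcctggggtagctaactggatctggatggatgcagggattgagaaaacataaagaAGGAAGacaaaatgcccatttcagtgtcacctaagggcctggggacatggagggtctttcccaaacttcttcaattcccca
Fcna: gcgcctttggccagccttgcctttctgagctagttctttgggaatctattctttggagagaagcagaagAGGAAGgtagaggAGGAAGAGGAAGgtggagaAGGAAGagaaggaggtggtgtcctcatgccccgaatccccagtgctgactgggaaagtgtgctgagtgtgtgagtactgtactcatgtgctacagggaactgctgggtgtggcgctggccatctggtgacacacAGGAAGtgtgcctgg
Cd5l: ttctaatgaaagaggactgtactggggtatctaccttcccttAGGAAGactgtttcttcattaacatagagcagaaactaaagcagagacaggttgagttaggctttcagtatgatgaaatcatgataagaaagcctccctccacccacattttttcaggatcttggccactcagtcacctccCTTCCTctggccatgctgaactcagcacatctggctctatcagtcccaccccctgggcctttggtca
Promoters were matched for 18 of the 25 leading genes, with 20 windows in all, and not for Adgre1, Csf1r, Hmox1, Itgal, Slc40a1, Sirpa and Spi1. AGGAAG, searched on both strands, was in 15 of these 20 windows (75%) and in 29.5% of all 32851 windows of the same length. TGCTGA was in 6 of the 20 and in 16.1% of all. CACGTG, the E-box read by MITF and TFE factors, and TGACNNNGC, the antioxidant element read by NRF2 and BACH1, were in 0 of the 20 windows, and in 6.02% and 10.2% of all. A match describes letters in a window and not a bound site. The windows of all genes include genes outside the panel. Spi1, which encodes PU.1, was among the leading genes, at 838 against 73.3 CPM (11.4-fold, 8.38–15.6). Whether PU.1 acts on the leading genes was not tested.

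Some iron and heme genes were also high. Hmox1, which opens the heme ring, was at 3714 against 129 CPM (28.8-fold, 23.7–34.98). Slc40a1, which encodes ferroportin, the iron exporter, was at 4047 against 285 (14.2-fold, 12.3–16.5). Slc11a1, which carries iron and manganese out of the phagosome, was at 914 against 25.3 (36.1-fold, 23.6–56.8). Hmox1 and Slc40a1 were found together in 101 members, Hmox1 alone in 52, Slc40a1 alone in 74 and neither in 74. The other measured genes of the iron and heme list were closer to the rest of the section. Lrp1, a receptor that takes up heme bound to hemopexin, was 3.93-fold higher (3.43–4.51). Bach1, the heme-sensing repressor, was at 1.60-fold (1.10–2.27), and Tfrc, the transferrin receptor, at 0.999-fold (0.893–1.11). Of 10 genes of this list with 20 or more counts in both groups together, 4 were at least 2-fold higher and none at least 2-fold lower, where 10.1% and 11.8% of all 3080 genes at that minimum passed these marks. The minimum can be reached through the members alone, as it was by 80 of the 3080 genes, 53 of which were counted as at least 2-fold higher. Cd163, the receptor for hemoglobin bound to haptoglobin, had 1 count in all members and none in the cells with no C1q count, which is too few to give a ratio.

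Many lysosomal and uptake genes were also high. Ctss, a cysteine protease of antigen-presenting cells, was 51.3-fold higher (41.2–64.5), and Ctsc, which activates serine proteases, 19.6-fold (17.2–22.4). Grn, the lysosomal progranulin, was at 4037 against 404 CPM (9.99-fold, 8.74–11.4). Hexa, which degrades gangliosides, was 6.90-fold higher (5.56–8.55). Of 27 lysosomal genes with 20 or more counts, 16 were at least 2-fold higher (against 10.1% of all genes) and 0 at least 2-fold lower (against 11.8%). Summed, the list was 2.88% of the members' transcripts and 0.769% of those of the other cells. The other 11 lay within 2-fold, among them Cd63 at 0.886-fold (0.753–1.04) and Ctsl at 1.23-fold (0.869–1.69).

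Other leading genes, at ranks between those named above, included receptors of the macrophage lineage. Adgre1, which encodes F4/80, was 45.2-fold higher (32.0–65.3), and Csf1r, the receptor that macrophages need for survival, 43.9-fold (30.5–64.8). Sirpa, which reads the CD47 signal on other cells, was 13.5-fold higher (10.3–17.7), and the Fc receptor gene Fcgr3 15.3-fold (10.4–22.8). Aif1 (29.5-fold), Rab32 (22.3-fold), Itgal (18.4-fold), Lcp2 (14.4-fold), Lyz2 (12.3-fold), Ptgs1 (11.1-fold), Slc8a1 (9.91-fold), Dock2 (7.90-fold) and Tnfrsf1b (6.93-fold) were also among the leading genes. Igf1, a growth factor, was 8.18-fold higher (6.02–11.1), with 17.3-fold on the left and 5.73-fold on the right side. Nr1h3, which encodes the liver X receptor alpha, was 12.02-fold higher (8.76–16.5).

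**Figure D3:**
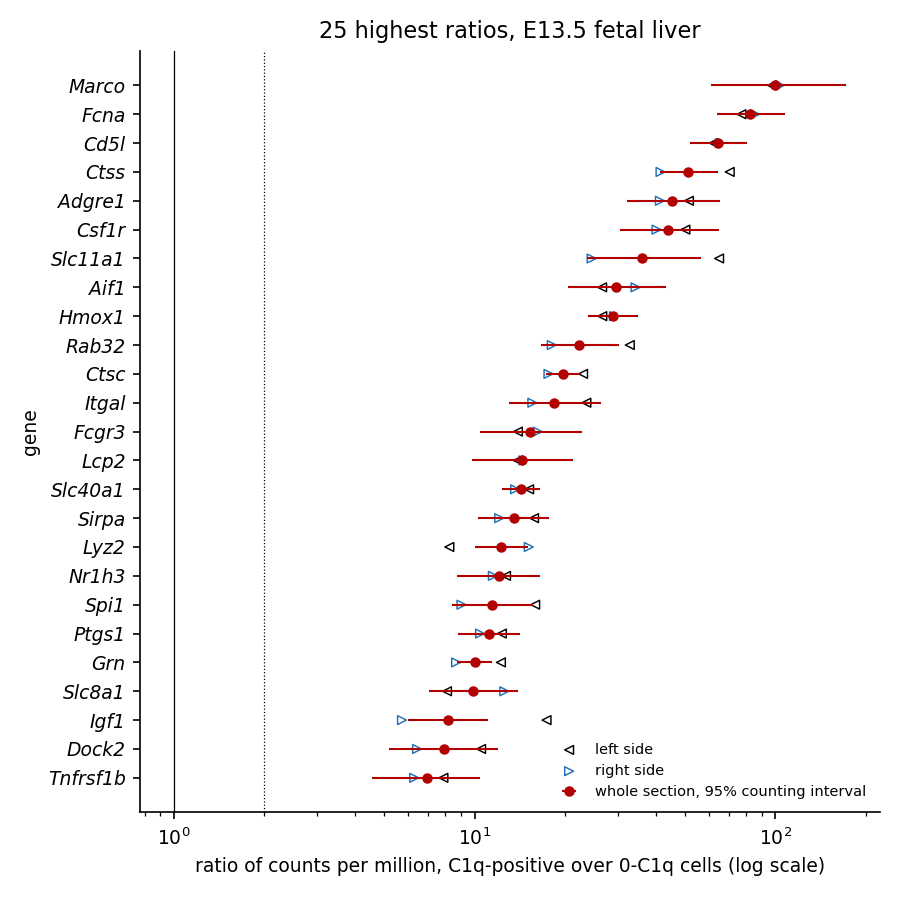
The 25 genes with the highest ratio of CPM in C1q-positive over 0-C1q cells, on a log scale. Red points are the whole section with 95% counting intervals, triangles are its left and right sides, and lines mark equality and 2-fold. On both sides every gene lay above 2-fold, with the widest gap between sides for Igf1.

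The macrophage lists were read beside these backgrounds of 10.1% and 11.8%. Of 10 macrophage core genes with 20 or more counts, 3 reached that minimum only through the members, and the other 7 were all at least 2-fold higher. The median log2 ratio of the 10 was 5.06, against -0.10 over the 3080 genes. Of the resident macrophage list, which holds genes of liver and other tissue macrophages, 7 of the 8 genes with 20 or more counts in the cells with no C1q count were at least 2-fold higher, and 2 more reached the minimum only through the members. Folr2 was one of these 2, at 21 counts against 3 (76.4-fold, 22.8–400). Lyve1, shared by some resident macrophages and by sinusoidal endothelium, was the gene of the 8 within 2-fold, at 1.55-fold (1.22–1.94). Among Fc and pattern receptors 8 of 16 genes reached the minimum only through the members. Of the other 8, 7 were at least 2-fold higher, and Tlr5 had 0 counts in the members against 24. Marco, Fcgr1 (42.8-fold), Cd180 (28.5-fold) and Tlr2 (27.7-fold) were among those that reached it through the members.

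The list of macrophage transcription factors was divided. Irf5 (21.4-fold, 12.8–36.5), Irf8 (5.26-fold, 3.19–8.47) and Maf (5.12-fold, 4.00–6.53) were higher, all of them factors of the macrophage lineage. In all, 9 of 19 were at least 2-fold higher (10.1% of all genes) and 1 was lower (11.8%), which was Runx3 with 1 count in the members. Nfe2l2, which encodes NRF2, and Runx1 were at 1.10-fold (0.752–1.56) and 0.960-fold (0.467–1.78).

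Some surface genes of the erythroblastic island were higher in the members. Vcam1, which binds integrin α4β1 on erythroblasts, was at 914 against 161 CPM (5.69-fold, 4.40–7.33). Itgav, whose product binds ICAM4 on erythroblasts, was 2.42-fold higher (1.64–3.50). Siglec1, the sialic acid receptor CD169, was seen 12 times against 5 (26.2-fold, 8.59–94.9), which is under the minimum of 20 counts and outside the tally below. Vcam1 and Adgre1 were found together in 33 members, Vcam1 alone in 42, Adgre1 alone in 68 and neither in 158. Of the 10 genes of the list with 20 or more counts, 5 were at least 2-fold higher, beside 10.1% of all genes. The others were Itgb1, Itga4, Klf1, Epor and Itgb3, which erythroid or other blood cells also express, at 0.686-fold to 1.18-fold. Klf1 encodes a transcription factor, so the list is not of surface genes alone. Epor, the erythropoietin receptor, was at 771 against 1064 CPM (0.725-fold, 0.572–0.908).

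Genes for the clearance of dying cells and for lipids were mostly higher. Mertk and Axl, receptors for phosphatidylserine bridged by Gas6, were 8.52-fold (4.84–14.8) and 5.49-fold higher (4.22–7.10), while the third receptor of the family, Tyro3, had 2 counts in the members against 44 (0.496-fold, 0.0582–1.90). Of 11 efferocytosis genes 7 were at least 2-fold higher, beside 10.1% of all genes, and 1, Tyro3, at least 2-fold lower, beside 11.8%. Trem2, a lipid receptor, was at 29 counts against 5 (63.3-fold, 24.2–209), Pltp, a phospholipid carrier, was 8.73-fold higher (5.61–13.5), and Lpl, which releases fatty acids, 3.94-fold (3.19–4.84). Apoe, which liver cells also make, was at 1.55-fold (1.42–1.70). Of 12 lipid genes 8 were at least 2-fold higher, of which 2, Trem2 among them, reached the minimum only through the members.

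Among secreted signals, the cytokine gene Il18 had 16 counts against 7 (24.9-fold, 9.71–71.7) and the chemokine gene Ccl24 had 38 against 7 (59.2-fold, 26.1–157). Both reached the minimum of 20 counts only through the members, as did all 4 of the higher chemokine genes. Tgfb1 was 2.06-fold higher (1.62–2.59), and Kitl, the stem cell factor made by stroma, was at 0.714-fold (0.384–1.22). Of 9 other complement genes, 0 were at least 2-fold higher and 2 at least 2-fold lower, counts too small to set apart from the 10.1% and 11.8% of all genes. The 2 were C3, at 0.483-fold (0.313–0.715), and C5ar2, with 1 count in the members. The costimulatory gene Cd86 had 41 counts against 9 (49.7-fold, 23.8–116), and so also passed only through the members.

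**Figure D4:**
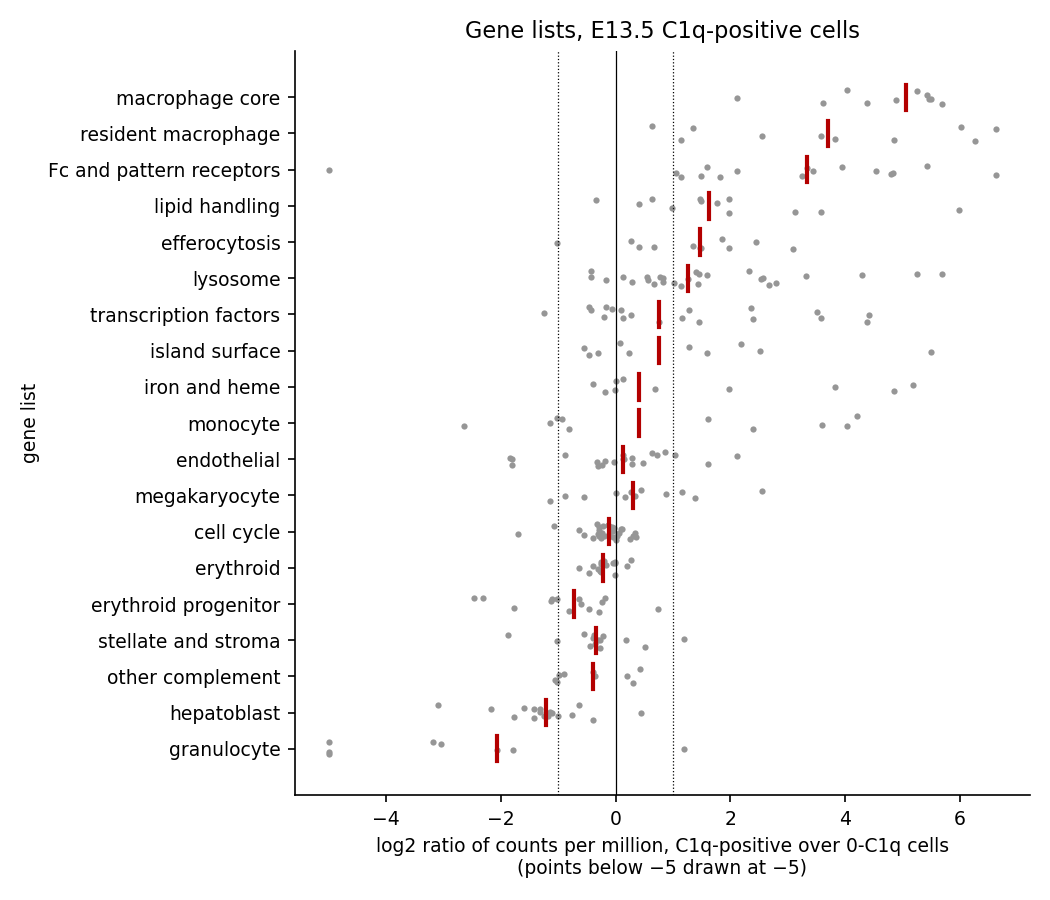
Log2 ratio of CPM in C1q-positive over 0-C1q cells for each gene with 20 or more counts (gray points), by gene list, with the median of each list as a red bar. Points with 0 counts in the members are drawn at -5, the solid line is equality and the dotted lines are 2-fold. The macrophage core list has its median at 5.06, the erythroid list at -0.22, the hepatoblast list at -1.22 and the granulocyte list at -2.06 over its 5 genes with a count in the members, or -1.54 with the 3 others at a floor of 3 counts.

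Genes of granulocyte precursors were among the lowest. Mpo, the myeloperoxidase of granulocyte precursors, was at 143 CPM in the members against 1176 (0.121-fold, 0.0678–0.201). Before thinning it was seen in 4.32% of the members and 4.62% of the others, and after thinning in 0 of 279 members (0–1.31%) and in 3.29% of the others (2.72–3.95%). Plac8, found in immature myeloid cells, had 7 counts against 475 (0.161-fold, 0.0643–0.334), and Ctsg, a granule protease, had 1 against 99 (0.110-fold, 0.00276–0.628). On the left side Ctsg was at 0.795-fold, from 1 count against 16, and so not at least 2-fold lower there. Plac8 was at 0.417-fold on the left side and 0.0335-fold on the right. Slc39a5, a zinc carrier, and Actc1, cardiac actin, had no count in the members, with upper interval bounds of 0.319-fold and 0.327-fold. Of the 125 Actc1 counts in the other cells, 124 were on the right side and 1 on the left, in 0.486% of these cells. Hsd17b7, Plekha5, Tgfb2, Sept6 and Eln had 1 or 2 counts in the members, with ratios from 0.0866 to 0.180. Of 8 granulocyte genes 7 were at least 2-fold lower, beside 11.8% of all genes, and Csf3r had 4 counts against 19 (2.30-fold, 0.568–6.91). The monocyte list was mixed, with 5 of 10 genes at least 2-fold higher, beside 10.1% of all genes and with 1 of the 5 let in only through the members, among them Ms4a6c (12.1-fold, 7.01–20.9), and 3 at least 2-fold lower, among them Fn1 (0.454-fold, 0.366–0.557).

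Hepatoblast transcripts were lower in the members but not absent. Of 18 hepatoblast genes 14 were at least 2-fold lower, beside 11.8% of all genes, and none at least 2-fold higher, beside 10.1%. Afp, the fetal serum protein of hepatoblasts, was at 6980 against 17480 CPM (0.399-fold, 0.370–0.430). No hepatoblast count was found in 158 members (52.5%) and in 1235 of the other cells (27.3%).

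Erythroid transcripts, in contrast, were nearly as frequent in the members as in the rest of the section. The 16 erythroid genes gave 6.28% of the members' transcripts and 7.06% of those of the cells with no C1q count, a ratio of 0.890 (0.867–0.912). This ratio was lower with a higher C1q minimum, at 0.746 with at least 5 C1q counts and 0.428 with at least 10. None of the 16 genes passed 2-fold in either direction among the members. Slc4a1, the anion exchanger of the red cell membrane, was at 0.992-fold (0.938–1.05), Alas2, the first enzyme of erythroid heme synthesis, at 0.995-fold (0.919–1.08), and Gata1, the erythroid master factor, at 0.639-fold (0.360–1.06). At least 3 counts of the erythroid core list were held by 214 members (71.1%, 65.6–76.2%) and by 2992 of the other cells (66.2%, 64.8–67.5%). Per member the erythroid share ran from 0 to 34.7% with a median of 6.50%. RNA of erythroid cells inside the macrophage, of an erythroid cell above or beside it, and of the macrophage itself cannot be told apart in these counts. Of 14 erythroid progenitor genes 6 were at least 2-fold lower, beside 11.8% of all genes, and 8 lay within 2-fold, with the summed list at 0.690-fold (0.619–0.769). Among them were Kit at 3 counts against 180 (0.182-fold, 0.0372–0.540) and Myb at 6 against 323 (0.203-fold, 0.0738–0.446). Among 34 cell cycle genes, 32 lay within 2-fold, and Mki67 was at 0.964-fold (0.876–1.06). The endothelial list, which marks cells that line the sinusoids, was summed at 7218 CPM in the members against 5490, with 3 of 21 genes at least 2-fold higher and 3 lower, close to the 10.1% and 11.8% of all genes. The megakaryocyte list was at 2942 against 2089 CPM (1.41-fold, 1.25–1.59), but at 0.762-fold on the left side and 1.75-fold on the right side.

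The levels of the leading genes went with the C1q count of the cell. Cd5l was at 86.4 CPM in cells with 0 C1q counts, at 1251 in the 430 cells with 1 or 2, at 2844 in the 136 cells with 3 or 4, at 6028 in the 105 cells with 5 to 9 and at 8725 in the 60 cells with 10 or more. The order was the same for 24 of the 25 leading genes and for 4.44% of all 2048 genes, but the leading genes were chosen on cells split by the same C1q counts, so much of their order follows from that choice. The exception was Spi1, at 767 with 3 or 4 and 692 with 5 to 9 C1q counts. Vcam1 was at 161, 351, 569, 1154 and 1103 CPM over the same classes. Erythroid genes went another way. They made up 7.06%, 7.45%, 7.90% and 7.21% of the transcripts in the first 4 classes and 3.02% in the cells with 10 or more C1q counts. Hepatoblast genes were lower in each further class, from 31035 to 8926 CPM. Depth differed between the classes as well, though not in their order. The medians were 182, 231, 201.5, 247 and 379 transcripts from the class with 0 C1q counts to that with 10 or more. The part of depth in these differences was not tested.

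**Figure D5:**
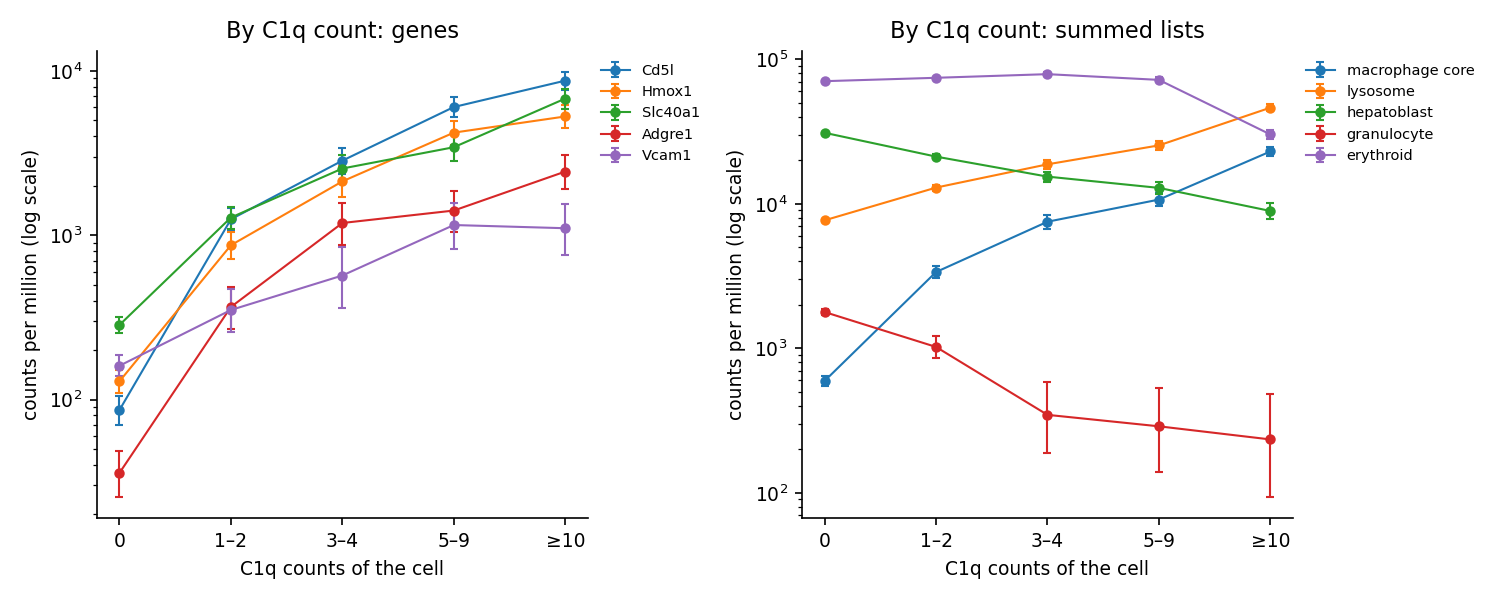
CPM (log scale) by the summed C1q counts of the cell for 5 genes (left) and 5 summed gene lists (right), with exact Poisson intervals. The macrophage core and lysosome lists and the genes other than Vcam1 are higher in each class with more C1q counts, the hepatoblast and granulocyte lists are lower, and the erythroid list lies below its level in cells with 0 C1q counts only in the 60 cells with 10 or more.

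Few cells with no C1q count passed a macrophage gate. In all, 23 cells held no C1q count and 2 or more counts of a gate list of 7 macrophage genes that included Adgre1, Csf1r, Aif1, Cd68, Fcgr1 and Ms4a7, with 6497 transcripts in all and a median of 180 per cell, so most values of this comparison rest on a few counts. The resident macrophage list was at 17188 CPM in the members and at 2771 in these cells, from 18 counts (6.20-fold, 3.91–10.5). As a mean over cells this ratio was 3.92. Fcna had 2 counts there (16.1-fold, 4.43–133) and Marco had 1 (10.1-fold, 1.80–403). Vcam1, Lyve1, Cd38 and Igf1 had none, with lower interval bounds of 1.58-fold, 1.39-fold, 1.33-fold and 1.28-fold. They were among 13 genes with no count in these cells, of 510 genes with 50 or more counts in both groups together. All 13, and Fcna and Marco as well, reached that minimum only through the members, which held 105018 transcripts against 6497. The genes named as highest were picked by their ratio, and their bounds were not adjusted for that choice. The granulocyte list ran the other way, at 295 against 6003 CPM (0.0492-fold, 0.0297–0.0809), and Fn1 at 914 against 2771 (0.330-fold, 0.198–0.580). Mpo had 15 counts in the members and 33 in these cells, and Plac8 had 7 and 14. Among genes with 50 or more counts in both together, the lowest beside Fn1 were Ruvbl1 (0.322-fold), Peg10 (0.362-fold), Cul3 (0.371-fold) and Plagl1 (0.382-fold), each from 9 to 13 counts in these cells.

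Members lay near one another. The nearest other member was at a median of 7.18 µm (quartiles 5.66 and 11.4 µm), and for 209 of the 301 (69.4%) it was within 10 µm. The nearest cell of any kind was at a median of 5.60 µm, and this nearest cell was itself a member for 35.2% of the members and for 2.68% of the cells with no C1q count. Linked at 10 µm, the members formed 156 groups, of which 92 were single cells and the largest held 8. Whether adjacent members are several macrophages or parts of 1 cut into several outlines was not tested, and the 301 cells are not independent of each other.

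Around the members, erythroid transcripts were more frequent at close range. The 1600 cells with no C1q count within 15 µm of a member held the erythroid list at 83569 CPM, against 58538 in the 1014 such cells at 30 µm or more from every member (1.43-fold, 1.40–1.45). On the left and right side of the section the ratio was 1.60 and 1.33. The interval of the hepatoblast list included 1 (0.978-fold, 0.950–1.01), while the granulocyte list (0.567-fold, 0.507–0.634) and the stellate and stromal list (0.740-fold, 0.698–0.784) were lower near members. The megakaryocyte list (1.30-fold, 1.18–1.44) and the cell cycle list (1.20-fold, 1.16–1.24) were also higher near members. The near cells were shallower, with a median of 159 transcripts against 212. They also held more macrophage core transcripts (1.88-fold, 1.53–2.32). Cd5l, which is outside that list, was at 188 against 47.0 CPM (3.99-fold, 2.22–7.70), while Vcam1 was at 0.951-fold (0.635–1.43). The mean numbers of cells within 40 µm lay within the spread of each group. Within 40 µm of a member lay on average 85.1 cells ± 27.3 (SD over 301 cells), of which 58.6 ± 22.02 held 3 or more erythroid core counts (68.8%). Around cells with no C1q count these were 85.6 ± 28.3 and 58.4 ± 23.2 (68.2%, over 4523 cells). Other members were 7.66% of the cells within 40 µm of a member and 5.47% of those around the other cells.

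The same gate was read in the E14.5 fetal liver, where 14983 of 117323 cells passed (12.8%), and in the aged bone marrow, where 4077 of 140707 passed (2.90%). The median depth of C1q-positive cells and of cells with no C1q count was 171 and 164 transcripts at E14.5. In the marrow it was 134 and 57. The gate is a raw count that moves with depth, so these shares are not compared as abundances. None of the cell barcodes of the E13.5 section was shared with either. The E14.5 section was on 477 genes, 233 of them shared, and was imaged in another run with another segmentation, so stage, panel and run cannot be told apart. All 8 leading genes on that panel were at least 2-fold higher in its C1q-positive cells, where 15.4% of 65 genes with 100 or more counts in both sections were. Cd5l was at 30.8-fold (29.8–31.9) and Slc40a1 at 3.16-fold (3.13–3.19), against 64.5-fold and 14.2-fold at E13.5. Vcam1 was at 1.73-fold (1.69–1.77) and Epor at 0.813-fold (0.803–0.822).

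In the aged bone marrow 16 of the 25 leading genes were at least 2-fold higher, where 3.85% of 1972 genes were. Marco was highest of them, at 23.5-fold (18.1–30.6), followed by Fcna at 13.0-fold (12.4–13.6). Lyz2 was at 1.11-fold (1.08–1.13), with 12251 CPM in the marrow cells with no C1q count and 163 in those of the E13.5 liver. Spi1 was at 0.909-fold (0.807–1.02). Cd163 was at 9.52 CPM in the E13.5 members, from 1 count. It was at 2035 CPM in the marrow members, from 1334 counts, which was 21.4-fold higher (19.7–23.3) than in the other marrow cells. In the E14.5 members it was at 48.9 CPM, from 130 counts and at 3.20-fold (2.55–4.00). That CPM is out of the 477-gene panel, so it is not on the scale of the E13.5 and marrow values. The 1 count at E13.5 is too few to read a change from. In the marrow, Vcam1 was at 5.72-fold (5.34–6.12), and Mertk at 15.8-fold (13.3–18.8). Tissue, age and preparation differ together between these sections, since the marrow was embedded in gelatin and sliced frozen before paraffin, and each ratio also depends on the other cells of its own section.

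Of 17 genes that the study discusses as markers of C1q+ or island macrophages, 13 were on the panel and 11 had 20 or more counts at E13.5. Of these, 10 were at least 2-fold higher, beside 10.1% of all 3080 genes at that minimum, with a median log2 ratio of 3.09, and Epor was the other. Il18, among the 10, reached the minimum only through the members. Under the minimum, and so outside this tally, were Siglec1, with 12 counts against 5, and Cd163, with 1 count against 0. By flow cytometry the study reported high CD169 and CD163 on C1q+ macrophages of the E14.5 fetal liver. It found no significant difference in EpoR between C1q+ and C1q-negative macrophages of the bone marrow. The study compared C1q+ macrophages with other macrophages, whereas the cells they were set against here are all cells with no C1q count, 66.2% of which held 3 or more erythroid core counts.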

How the data were processed

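Per the labels, the E13.5 liver was fixed in formalin and embedded in paraffin, and its section was imaged on the Xenium platform. The authors deposited raw counts of decoded transcripts per gene and segmented cell, with cell positions and areas, as made by Xenium Onboard Analysis 3.1.0.4 per the run description, whereas the methods name Space Ranger. No normalization had been applied. The 5050 genes comprised 5006 predesigned and 44 custom targets. The 5285 cells held 1384795 transcripts, with a median of 190.

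Members had 3 or more C1q counts, and cells needed 5 or more genes. Counts were summed per group and divided by the total of genes other than C1q (105018 in members, 1145855 in the reference). Ratios have exact conditional binomial intervals at 95%, levels exact Poisson and shares Clopper-Pearson intervals. RNA of neighboring cells and doublets were neither removed nor called. Named genes were the 25 highest and 10 lowest ratios among genes with 100 or more counts, genes of the lists, and, against C1q-negative myeloid cells, the 10 highest and 10 lowest with 50 or more counts, of which those with few counts are given in part. Members and lists were chosen with earlier results of these data known. Some genes of the lists are not reported here by name. No p-value was computed. The ratio code was tested on simulated data. Python 3.11.15, numpy 2.4.6, scipy 1.17.1 and pandas 2.3.3 were used. The alternatives changed the C1q minimum, the cell filter, the depth, the total, the reference cells, the gene minimum and the area.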

Additional observations from a re-analysis of the deposited data

Results flagged for a closer look

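For Itgal and Dock2, both genes of leukocytes, the ratio of C1q-positive cells to cells with no C1q count lay above 1 in the E13.5 liver. In the aged bone marrow it lay below 1, for Dock2 only slightly. Grk2, outside the leading genes, was also 2.89-fold higher at E13.5 (2.39–3.48) and at 0.940-fold (0.887–0.996) in the aged marrow. Itgal was 18.4-fold higher at E13.5 and at 0.740-fold (0.642–0.850) in the aged marrow, and Dock2 was 7.90-fold higher at E13.5 and at 0.904-fold (0.828–0.986) in the aged marrow. In the cells with no C1q count, Itgal was at 47.1 CPM in the liver and 435 in the marrow, and Dock2 at 50.6 and 914. In the C1q-positive cells, Itgal was at 867 CPM in the liver and 322 in the marrow, and Dock2 at 400 and 827. With 1 section on each side the difference was not tested.

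Cells with 1 or 2 C1q counts, which belonged to neither side of the comparison, held the macrophage core list at 5.67-fold the level of cells with no C1q count.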

How the results depend on the processing

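No paired analysis was possible because each condition had 1 section. All 25 leading genes stayed at least 2-fold higher in each of 11 alternatives (275 values, lowest 5.73), and 108 of 110 values of the 10 lowest genes were at least 2-fold lower (highest 0.795, Ctsg on the left side), 39 of them because the members had no count. None of the values reversed, but 105 of these 385 moved beyond the counting interval of the value as reported, among them Marco and Fcna. The resident macrophage ratio to C1q-negative myeloid-gated cells was 3.92 as a mean over cells and 9.29 with at least 10 C1q counts.

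The share of members was 3.14% with at least 5 C1q counts, 1.14% with at least 10, and 7.01% among cells with at least 100 transcripts. The genes at least 2-fold higher numbered 214 of 1985 with at least 10 C1q counts and 39 of 838 after thinning to 100 transcripts. They numbered 310 of 3080 at a minimum of 20 counts per gene and 36 of 957 at 300. On the left and right side they were 62 of 1249 and 89 of 1528. Those at least 2-fold lower numbered 211 of 2019 with at least 5 C1q counts, 414 of 1985 with at least 10 and 244 of 2048 as a mean over cells. They numbered 104 of 838 after thinning, 363 of 3080 at 20 counts per gene and 34 of 957 at 300. On the left and right side the lower genes were 128 of 1249 and 92 of 1528. Fewer genes or cells entered the thinned and 300-count settings and those of 1 side. The cause of the other moves was not tested.

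The macrophage core median was 5.92 with at least 10 C1q counts and 5.59 against cells at 20 µm or more from members. The erythroid ratio was 0.746 with at least 5 C1q counts, 0.428 with at least 10, 0.941 with at least 100 transcripts per cell, 0.952 after thinning, 0.820 as a mean over cells, 0.853 without the 20 most abundant genes, 0.984 against cells at 20 µm or more, and 0.971 and 0.842 on the left and right side. The erythroid ratio of near to far cells was 1.33 at 20 µm, 1.39 with at least 5 C1q counts, and 1.60 and 1.33 on the sides. The gene minimum does not enter the erythroid sum or the C1q-negative myeloid comparison, and the choice of reference cells does not enter the latter. Depth limits the lowest genes, which had 0 to 15 counts in the members.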
